A study of Mus musculus with 12 samples.

Results

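The genes described here are 10 genes of the vessel lining, chosen by symbol from the 19246 genes of the expression table: Mmrn2, Pecam1, Cdh5, Kdr, Flt1, Tie1, Tek, Vwf, Egfl7 and Adcy4. All 10 were found, and all 10 were among the 14687 genes with enough counts to be tested. They were measured by RNA sequencing of mouse heart in 12 libraries, 3 in each of 4 groups. The strain is labelled IRC mouse, and the sources used here give no age, sex or part of the heart. Control mice had no treatment. The AOS group was given alginate oligosaccharides (AOS), short sugar chains from brown algae, at 10 mg/kg over 5 weeks. The busulfan group was dosed once with busulfan at 40 mg/kg, an alkylating agent used to clear bone marrow before a transplant. The busulfan plus AOS group had the same busulfan dose, followed by AOS at 10 mg/kg over 5 weeks. Nothing in the labels ties each library to its own animal, so the p-values below measure only the spread between these libraries, which may be technical.

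Endothelial cells line the heart's vessels and chambers. They receive vascular endothelial growth factor (VEGF) through the receptor kinases Kdr and Flt1 and angiopoietins through Tek, with Tie1 as a related partner receptor. They are held together by adhesion proteins such as VE-cadherin (Cdh5) and PECAM-1 (Pecam1). Mmrn2 (multimerin 2) is an extracellular matrix glycoprotein of the EMILIN family that is deposited along vessels and binds the endothelial surface lectins Clec14a and Cd93 as well as VEGF. Vwf is the clotting glycoprotein stored in endothelial cells and platelets, Egfl7 a secreted endothelial protein whose gene hosts the microRNA miR-126, and Adcy4 an adenylate cyclase, an enzyme that makes cyclic AMP.

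The promoter window of Adcy4, which was higher after busulfan plus AOS, is shown beside those of Kdr, Flt1 and Tie1, receptor genes whose levels varied together between libraries. Each window runs from 250 bases before to 50 bases after the annotated start, 5′ to 3′ on the gene's own strand, with the sequences from RefSeq (GRCm38.p6). Capitals mark GGAA, the core of sites bound by ETS transcription factors, on the printed strand, or TTCC where it lies on the other strand. The windows are chr14:55784023-55784322 for Adcy4, chr5:75978406-75978705 for Kdr, chr5:147725962-147726261 for Flt1 and chr4:118489800-118490099 for Tie1, all on the minus strand.
Adcy4: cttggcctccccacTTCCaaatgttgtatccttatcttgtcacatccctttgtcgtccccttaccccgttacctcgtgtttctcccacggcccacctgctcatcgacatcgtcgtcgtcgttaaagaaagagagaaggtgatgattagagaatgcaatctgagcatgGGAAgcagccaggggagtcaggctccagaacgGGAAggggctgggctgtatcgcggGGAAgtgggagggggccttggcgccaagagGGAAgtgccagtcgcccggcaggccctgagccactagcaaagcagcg
Kdr: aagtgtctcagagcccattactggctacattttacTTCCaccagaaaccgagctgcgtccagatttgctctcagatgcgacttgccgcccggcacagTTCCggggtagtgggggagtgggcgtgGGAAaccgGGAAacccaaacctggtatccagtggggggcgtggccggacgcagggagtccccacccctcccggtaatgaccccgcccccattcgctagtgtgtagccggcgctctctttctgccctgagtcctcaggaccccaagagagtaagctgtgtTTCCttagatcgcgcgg
Flt1: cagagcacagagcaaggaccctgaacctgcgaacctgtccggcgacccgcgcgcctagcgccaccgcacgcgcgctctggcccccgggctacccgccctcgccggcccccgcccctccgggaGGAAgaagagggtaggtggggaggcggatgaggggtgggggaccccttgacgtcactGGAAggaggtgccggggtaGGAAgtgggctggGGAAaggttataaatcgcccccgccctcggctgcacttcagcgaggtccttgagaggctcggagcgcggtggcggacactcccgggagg
Tie1: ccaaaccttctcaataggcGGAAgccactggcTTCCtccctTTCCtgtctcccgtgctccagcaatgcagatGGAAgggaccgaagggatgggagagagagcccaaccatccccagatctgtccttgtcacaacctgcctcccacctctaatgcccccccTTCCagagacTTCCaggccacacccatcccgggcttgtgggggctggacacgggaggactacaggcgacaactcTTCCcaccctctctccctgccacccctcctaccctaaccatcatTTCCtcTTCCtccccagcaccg

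Windows were found for 6 of the 10 genes, 8 windows in all, with 3 for Egfl7; the genes without one are Mmrn2, Pecam1, Cdh5 and Vwf. The GGAA core occurred in 96.0% of the 32851 windows of the RefSeq table, with a median of 3 matches over both strands. Adcy4 and Kdr held 5 matches each, a number reached by 28.6% of all windows, and Flt1 held 4, reached by 46.3%. Tie1 held 9, which 1.59% of all windows reached. Tek held 2, reached by 84.6%, and the 3 windows of Egfl7 held 5, 4 and 1, the last reached by 96.0%. Longer words were searched on both strands too, of which CCGGAAG and CAGGAAG contain the GGAA core. CAGGAAG (13.3% of all windows) was found in 2 windows of Egfl7, the GATA word AGATAA (11.2%) in Tek and Adcy4, and the SOX word AACAAT (10.7%) in Tek. CCGGAAG (8.86%) and the FOX word TAAACA (13.4%) were in none of the 8. A match describes the letters of the window and not a bound site.

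Library totals lay between 9929772 and 13620815 estimated counts, and each of the 10 genes had between 171 counts (the lowest, Adcy4) and 4087 counts (the highest, Kdr) in a library. The libraries differed in how much RNA of tissues around the ventricle they held. The mean of 10 atrial muscle markers ran from 2.29 to 8.49 in log2 CPM, counts scaled to library size, highest in AOS replicate 2. That library also had the highest levels of B cell and lung epithelium markers, 3.18 and 3.90 log2 CPM. The mean of 10 adipocyte markers lay between 0.66 and 3.92 log2 CPM in control libraries and between 6.04 and 7.16 in busulfan plus AOS libraries. Ventricular muscle markers lay between 11.84 and 13.16 log2 CPM over the 12 libraries. They were at 12.84 to 13.16 in control and at 11.84 to 12.63 after busulfan plus AOS, without overlap. The mean of 30 further endothelial genes lay between 5.09 and 5.37 log2 CPM. The defining transcripts of heart muscle and endothelium were thus present in all 12 libraries. In whole tissue, fewer cells of a type and less RNA per cell cannot be told apart.

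On the FPKM scale, which corrects for gene length, Pecam1 was the most abundant of the 10 genes, with a mean of 75.4 FPKM over the 12 libraries. Cdh5 followed at 53.9, Egfl7 at 40.3, Kdr at 39.9, Tie1 at 26.3, Tek at 20.8, Mmrn2 at 20.5, Flt1 at 20.0, Vwf at 15.6 and Adcy4 at 7.91. Pecam1 lay above Cdh5 in 12 of 12 libraries, and Cdh5 above Egfl7, Kdr above Tie1 and Tie1 above Tek in 11 of 12. Egfl7 and Kdr could not be ordered, since Egfl7 was above Kdr in 6 of 12 libraries. Tek was above Mmrn2 in 8, Mmrn2 above Flt1 in 5, Flt1 above Vwf in 8 and Vwf above Adcy4 in 10, so the order of Tek, Mmrn2 and Flt1 changes from library to library.

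The genes differed in how tightly libraries of a group agreed. The pooled within-group SD of log2 CPM was 0.0466 for Adcy4, 0.0927 for Mmrn2, 0.0944 for Tek and 0.131 for Pecam1. It was 0.228 for Egfl7, 0.275 for Tie1, 0.285 for Flt1, 0.360 for Cdh5, 0.432 for Kdr and 0.651 for Vwf. Vwf had the widest range, 5.53-fold between control replicate 1 and AOS replicate 2. A change that would stand clear of the replicate spread for Adcy4 or Mmrn2 would therefore lie within it for Kdr or Vwf.

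**Figure D1:**
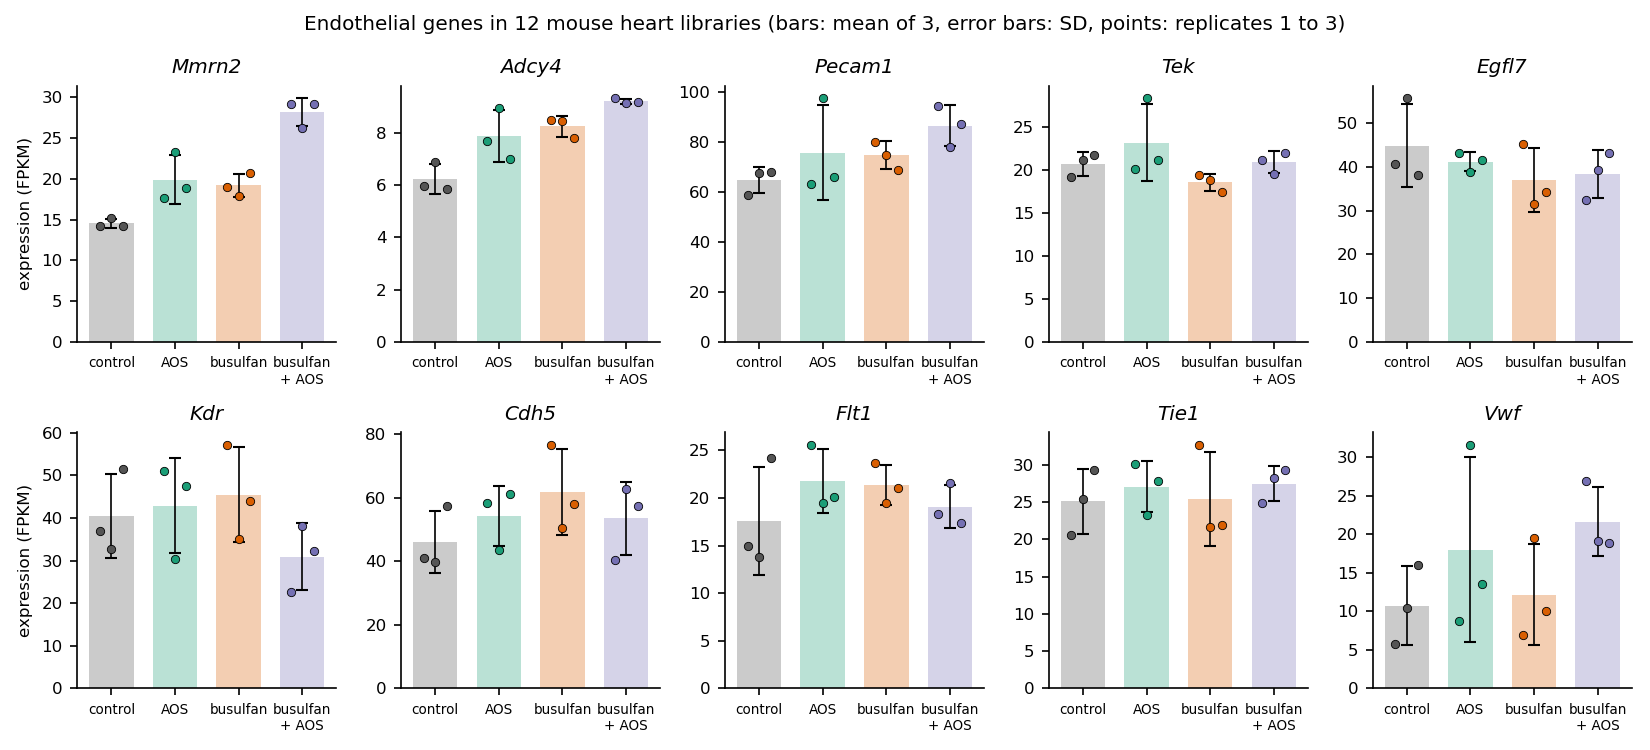
Expression in FPKM (y axis, from 0, a separate scale per gene) of the 10 genes in the 4 groups; bars are means of 3 libraries, error bars the SD and points replicates 1 to 3 from left to right. Mmrn2 lies between 14.2 and 15.2 FPKM in control libraries and between 26.3 and 29.3 after busulfan plus AOS, while the points of Kdr, Cdh5 and Vwf spread widely within groups.

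Mmrn2 (chr14:34375504-34404287, plus strand, GRCm38) was higher in hearts given busulfan plus AOS than in control hearts. It measured 14.2, 15.2 and 14.2 FPKM in control replicates 1 to 3, and 17.6, 23.3 and 18.9 with AOS. It measured 19.0, 17.9 and 20.7 FPKM with busulfan, and 29.3, 26.3 and 29.2 with busulfan plus AOS. The control libraries were below all others, the busulfan plus AOS libraries above all others, and the AOS and busulfan libraries overlapped. The group means were 14.5 ± 0.540 FPKM (SD, n = 3) in control, 19.9 ± 2.97 with AOS, 19.2 ± 1.41 with busulfan and 28.2 ± 1.69 with both.

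Busulfan plus AOS against control gave a log2 fold change of 0.77 ± 0.09 (SE; 95% interval 0.56 to 0.97) for Mmrn2, with an adjusted p of 0.0134 by the quasi-likelihood test of edgeR, adjusted over all genes by Benjamini-Hochberg. It ranked 6th by p among 14687 genes. Adcy4 (chr14:55769056-55784095, minus strand) was the other gene of the 10 to pass. Thus 2 of 10 passed, both higher, where 0.306% of all genes passed and 0.259% passed and were higher. DESeq2, run as an alternative, called the same count, 2 of 10, where it called 15.3% of all genes it tested. In edgeR 3 of 10 had an unadjusted p under 0.05, where 32.8% of all genes did. The 10 genes were chosen with earlier results of these data known. Counts of them beside the shares of all genes, here and below, are therefore descriptions and no independent support. List counts for this comparison are read against these shares.

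Adcy4 measured 5.98, 6.88 and 5.84 FPKM in control replicates 1 to 3, and 7.70, 8.98 and 7.02 with AOS. With busulfan it measured 8.52, 8.47 and 7.80 FPKM, and with busulfan plus AOS 9.34, 9.16 and 9.18. All 9 treated libraries were above all control libraries. The busulfan plus AOS libraries were closest together, at 9.23 ± 0.0987 FPKM (SD, n = 3) against 6.23 ± 0.564 in control. The log2 fold change of busulfan plus AOS against control was 0.47 ± 0.08 (SE; 95% interval 0.29 to 0.65), with an edgeR adjusted p of 0.0479, just under the threshold of 0.05.

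Both calls have limits. Mmrn2 stayed past the threshold in 20 of 26 alternatives, and its adjusted p rose to 0.0977 without control replicate 1, 0.0625 without control replicate 2, and 0.0648 and 0.0597 without busulfan plus AOS replicates 1 and 3. Adcy4 passed in 5 of 26, and its adjusted p reached 0.205 without control replicate 1. With the atrial marker level as a covariate Mmrn2 had a log2 fold change of 0.76 (adjusted p = 0.0579) and Adcy4 0.50 (0.123). With the adipocyte marker level, which separates control from busulfan plus AOS libraries, the values were 0.79 (adjusted p = 0.338) and 0.52 (0.482). In both fits the log2 fold changes stayed within 0.05 of those without a covariate, while the adjusted p rose.

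**Figure D2:**
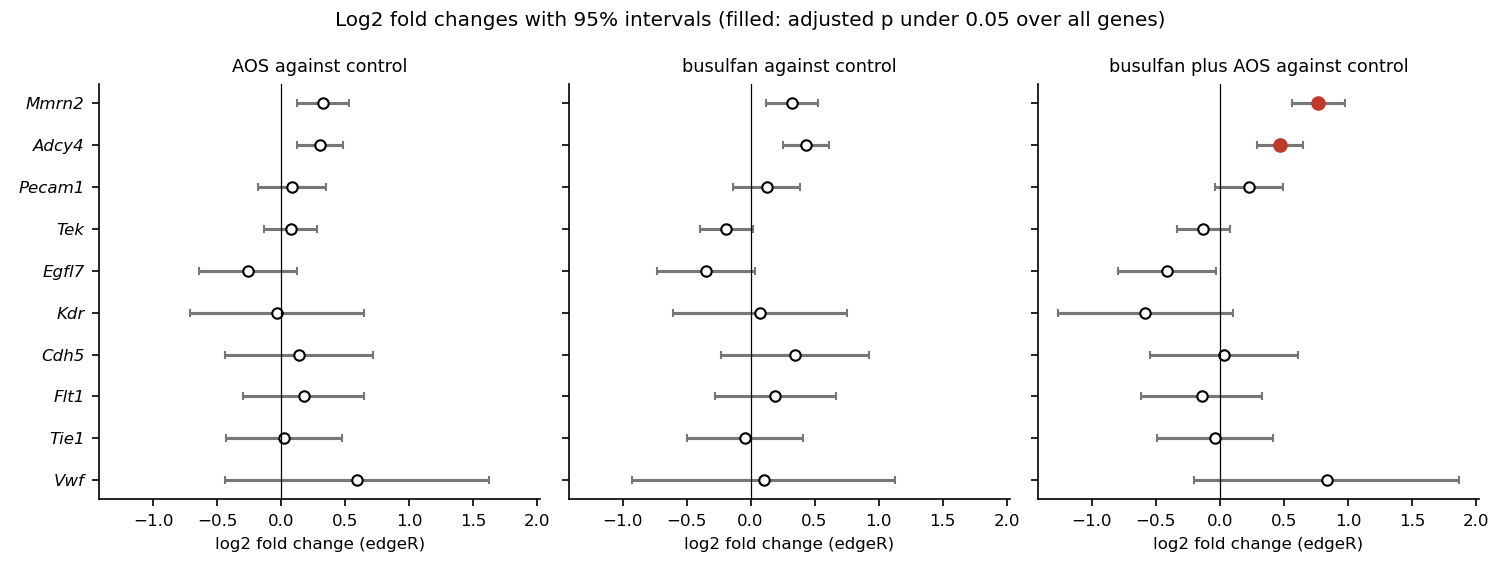
Log2 fold change against control (x axis) of the 10 genes for AOS, busulfan and busulfan plus AOS, with 95% intervals from edgeR; filled points have an adjusted p under 0.05 over all genes. The filled points are Mmrn2 at 0.77 and Adcy4 at 0.47, both for busulfan plus AOS, and the 3 panels share the same control libraries.

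Neither treatment alone gave a call. For busulfan against control, Mmrn2 had a log2 fold change of 0.33 ± 0.09 (SE) and Adcy4 of 0.43 ± 0.08, with an edgeR adjusted p of 0.416 for both. For AOS against control the values were 0.33 ± 0.09 and 0.30 ± 0.08, with an adjusted p of 0.642 for both. edgeR called 0 of the 10 genes in each comparison and 0% of all genes, although 1558 and 1017 of all genes had an unadjusted p under 0.05. DESeq2 called Adcy4 for busulfan against control (adjusted p = 0.0398), 1 of 10 genes where it called 0.37% of all genes. These comparisons share their control libraries, so the values stand side by side and not as separate evidence.

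Set against the single treatments, hearts given both had higher Mmrn2 in all 3 libraries, a difference that edgeR did not call. Mmrn2 was 0.44 ± 0.09 (SE) higher on the log2 scale than with busulfan alone, ranked 11th by p (edgeR adjusted p = 0.469), and 0.44 ± 0.09 higher than with AOS alone (0.173). edgeR called 0 of the 10 genes in both, against 0% and 0.0204% of all genes. DESeq2 called Mmrn2 in both, with adjusted p-values of 0.00697 and 0.0022, 1 of 10 genes where it called 0.344% and 0.976% of all genes. For Adcy4 the log2 differences were 0.04 (95% interval -0.14 to 0.22) from busulfan alone and 0.17 (-0.01 to 0.34) from AOS alone.

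Averaged over the presence or absence of the other treatment, Mmrn2 was 0.38 ± 0.07 (SE, log2) higher with busulfan (edgeR adjusted p = 0.0594) and 0.39 ± 0.07 higher with AOS (0.286). In the average effect of AOS it ranked 1st by p of all 14687 genes. Adcy4 was 0.30 ± 0.06 higher with busulfan (adjusted p = 0.0728) and 0.17 ± 0.06 higher with AOS (0.286). edgeR called 0 of the 10 genes in each, against 0.157% of all genes for busulfan and 0% for AOS. DESeq2 called Mmrn2 and Adcy4 for busulfan, 2 of 10 genes against 4.18% of all genes, and Mmrn2 for AOS, 1 of 10 against 0.631%. Leaving out AOS replicate 2, the library with the high atrial, B cell and lung epithelium markers, moved the edgeR count for busulfan from 0 to 2.

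Whether the effects of busulfan and AOS add up was tested as an interaction. For Mmrn2 the interaction was 0.12 on the log2 scale, with a 95% interval of -0.17 to 0.41, so neither a less than additive nor a more than additive response was detectable. For Adcy4 it was -0.26 (-0.52 to -0.01), with an unadjusted edgeR p of 0.0418 and an adjusted p of 1. edgeR called 0 of 10 genes here and 0% of all genes, with 432 genes at an unadjusted p under 0.05. Testing all 4 groups at once by F gave 11 calls, with Mmrn2 at an adjusted p of 0.0531 and Adcy4 at 0.178.

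The mean level of 30 further endothelial genes overlapped between all 4 groups. They include Erg, Cldn5, Eng and Robo4, and had a median log2 fold change of 0.00 for busulfan plus AOS against control, where all tested genes had 0.04. Of the 30, 15 were higher and 15 lower in the mean, and edgeR called 0 of them. Their log2 fold changes ran from -0.82 to 0.89, a range that takes in those of Mmrn2 and Adcy4. On the TMM-scaled log2 CPM scale 3 lay wholly higher than in control and 2 wholly lower, where 20.1% and 20% of all genes did. Of the 30, 7 had an unadjusted p under 0.05 and DESeq2 called 1, both smaller shares than the 32.8% and 15.3% of all genes. Mmrn2 lay above the mean level of these 30 genes by 0.62 to 0.78 on the log2 scale in control, 0.92 to 1.15 with AOS, 0.86 to 1.15 with busulfan and 1.27 to 1.56 with both. Adcy4 lay below it by 0.86 to 0.91 in control and by 0.31 to 0.55 after busulfan plus AOS. With the level of the 30 genes as a covariate, the log2 fold change of Mmrn2 for busulfan plus AOS against control was 0.77 (edgeR adjusted p = 0.0112) and that of Adcy4 0.47 (0.0328).

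**Figure D3:**
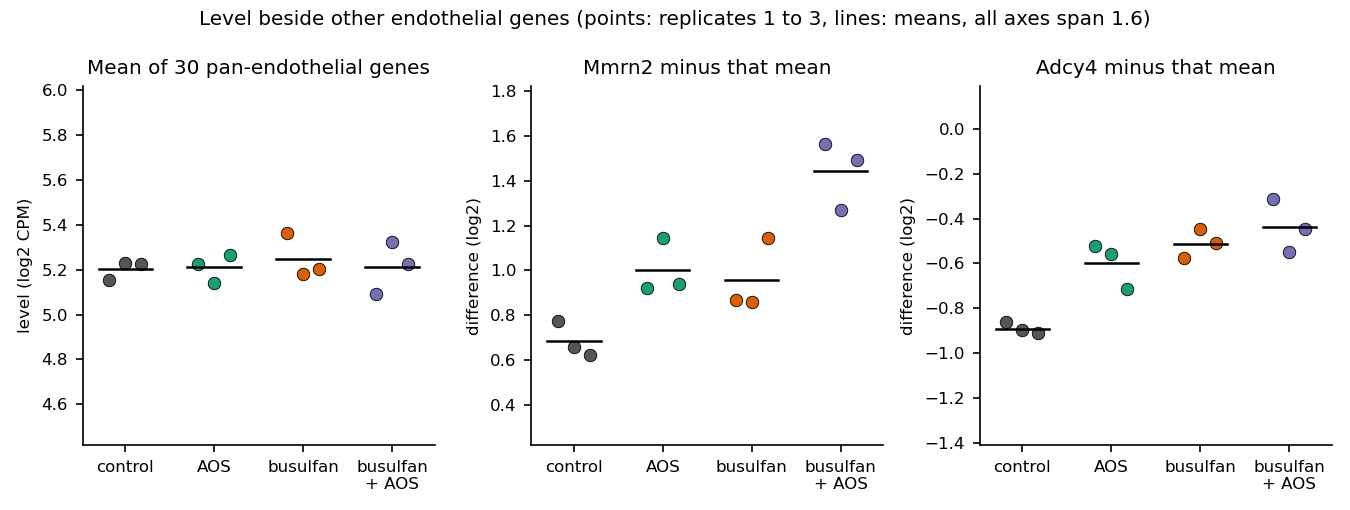
Mean level of 30 further endothelial genes in log2 CPM (left), and the log2 difference of Mmrn2 (middle) and Adcy4 (right) from that mean, by group; points are replicates 1 to 3 and lines the group means, with all y axes spanning the same width. The mean of the 30 genes stays between 5.09 and 5.37, while the Mmrn2 difference is 0.62 to 0.78 in control and 1.27 to 1.56 after busulfan plus AOS.

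Of Mmrn2's binding partners and relatives, edgeR called 0 of 6 tested genes, with 2 at an unadjusted p under 0.05, and DESeq2 called 1, Emilin2. Clec14a, its lectin partner, was at 6.78 to 8.08 FPKM after busulfan plus AOS and at 7.07 to 9.12 in control. Cd93, another partner, named in addition to the genes that the naming rule takes, had a log2 fold change of 0.11 ± 0.17 (SE) in that comparison. Of the 6 tested genes of this list, 5 were higher in the mean, with a median log2 fold change of 0.24. The largest was that of Emilin2, a matrix protein of the same family, at 1.36 ± 0.45 (edgeR adjusted p = 0.0933), from 2.94 to 5.00 FPKM in control to 8.92 to 9.88 after busulfan plus AOS. Emilin1 went from 8.02 to 12.2 FPKM in control to 13.5 to 13.9, without overlap (log2 fold change 0.28, adjusted p = 0.128).

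Among the adenylate cyclases, Adcy4 was the member called by edgeR, 1 of 8 tested. Of the 8, 7 were higher in the mean after busulfan plus AOS than in control, with a median log2 fold change of 0.66. Adcy3 had 1.44 ± 0.27 (SE; edgeR adjusted p = 0.0606) and Adcy7 0.85 ± 0.19 (0.0736), and DESeq2 called 3 of the 8, Adcy4 included, against 15.3% of all genes. Adcy6, a main form of heart muscle, had 0.28 ± 0.12 (0.133).

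Kdr, the main VEGF receptor, varied between libraries of the same group. It measured 37.0, 32.6 and 51.5 FPKM in control, and 50.9, 30.2 and 47.6 with AOS. With busulfan it measured 57.2, 35.1 and 44.1 FPKM, and with busulfan plus AOS 22.6, 38.1 and 32.1. The lowest 2 libraries were busulfan plus AOS replicate 1 and AOS replicate 2, and all 4 groups overlapped. The log2 fold change of busulfan plus AOS against control was -0.58 (95% interval -1.26 to 0.10; edgeR adjusted p = 0.206).

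Flt1, the VEGF receptor that binds the ligand tightly and signals weakly, ranged from 13.8 to 25.6 FPKM. Cdh5 ranged from 39.8 to 76.7 FPKM, with its highest value in busulfan replicate 1. Tie1 ranged from 20.6 to 32.7 FPKM, highest in the same library. In busulfan plus AOS against control the log2 fold changes were -0.14 (95% interval -0.61 to 0.33) for Flt1, 0.03 (-0.54 to 0.61) for Cdh5 and -0.04 (-0.49 to 0.41) for Tie1. The intervals are wide, and changes of a size like that of Adcy4 lie within the interval for Cdh5 in either direction.

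These genes rose and fell together from library to library. Cdh5 and Kdr had a correlation of log2 CPM of r = 0.85 over the 12 libraries, and of 0.99 once each group's mean was subtracted. Cdh5 and Flt1 had 0.79 in both forms, and Kdr and Tie1 had 0.70 and 0.87. Kdr and Vwf ran in opposite directions, with r = -0.71 and -0.62. Mmrn2 and Adcy4 had r = 0.79 over all libraries but -0.36 with group means subtracted. The 45 pairs share the same libraries and scaling, so these values describe them and carry no test.

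Kdr and Vwf followed the atrial, ventricular, endocardial and adipocyte marker levels, and Flt1 and Cdh5 followed the atrial level. Pecam1 followed the ventricular level, and Egfl7 the ventricular and adipocyte levels. Kdr fell as the atrial marker level rose across the 12 libraries (Pearson r = -0.91, permutation p = 8e-05, adjusted p = 0.0016; Spearman rho = -0.91, permutation p = 0.00015, adjusted p = 0.00573). Without the 2 libraries farthest from the median atrial level r was -0.87, and with group means subtracted it was -0.88. With the ventricular marker level Kdr had r = 0.92 (permutation p = 4e-05, adjusted p = 0.0016; rho = 0.87, permutation p = 0.00043, adjusted p = 0.00573; 0.82 without the 2 farthest libraries). Flt1 had r = -0.76 with the atrial level (permutation p = 0.00522, adjusted p = 0.0209; rho = -0.80, permutation p = 0.00265, adjusted p = 0.0118), and -0.60 without the 2 farthest libraries. Cdh5 had r = -0.73 with the atrial level (permutation p = 0.00788, adjusted p = 0.0287; rho = -0.73, permutation p = 0.00851, adjusted p = 0.0262), and -0.57 without the 2 farthest libraries. In all 40 relations were computed, 10 genes with 4 marker levels, and p-values were adjusted over the 40. By both Pearson and Spearman, 13 of the 40 had an adjusted p under 0.05, and they concerned Kdr, Vwf, Cdh5, Flt1, Pecam1 and Egfl7. Pecam1 had r = -0.76 with the ventricular level (permutation adjusted p = 0.0179) and rho = -0.74 (0.0262). Without the 2 farthest libraries its r was -0.52. Egfl7 had r = 0.69 with the ventricular level (permutation adjusted p = 0.0387) and rho = 0.75 (0.0252). With the adipocyte level it had r = -0.68 (permutation adjusted p = 0.0387) and rho = -0.81 (0.0118). Without the 2 farthest libraries r of Egfl7 was 0.42 and -0.71.

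Vwf measured 5.71, 10.5 and 16.0 FPKM in control, and 8.79, 31.6 and 13.6 with AOS. With busulfan it measured 6.92, 19.5 and 10.1 FPKM, and with busulfan plus AOS 26.8, 19.2 and 18.9. The busulfan plus AOS libraries were above all control libraries, and AOS replicate 2 was highest. The log2 fold change of busulfan plus AOS against control was 0.83 (95% interval -0.20 to 1.87; edgeR adjusted p = 0.229).

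Vwf rose with the level of endocardial genes, the lining of the heart chambers (r = 0.88, permutation p = 0.00024, adjusted p = 0.0024; rho = 0.84, permutation p = 0.00119, adjusted p = 0.00853; 0.77 without the 2 farthest libraries). It also rose with the atrial level (r = 0.83, permutation p = 0.00124, adjusted p = 0.00827; rho = 0.84, permutation p = 0.00128, adjusted p = 0.00853; 0.76 without the 2 farthest). With the atrial level as a covariate, the log2 fold change of busulfan plus AOS against control went from 0.83 to 0.12 for Vwf and from -0.58 to -0.08 for Kdr. With the adipocyte level both changed sign, to -0.39 and 0.28. Platelet and megakaryocyte markers, the other source of Vwf transcripts, lay between -0.17 and 2.91 log2 CPM; 7 of 10 were tested, and 2 of the 7 were higher in the mean after busulfan plus AOS.

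Mmrn2 showed a different relation. Over all libraries it had r = 0.66 with the adipocyte level (permutation p = 0.0220, adjusted p = 0.0549; rho = 0.66, permutation p = 0.0242, adjusted p = 0.0565; 0.49 without the 2 farthest libraries). With group means subtracted r was -0.13. With the ventricular level Mmrn2 had r = -0.62 (permutation p = 0.0308, adjusted p = 0.0724; rho = -0.66, permutation p = 0.0219, adjusted p = 0.0565; -0.61 without the 2 farthest), and -0.03 with group means subtracted. It had r = 0.50 with the atrial level (permutation p = 0.103, adjusted p = 0.138; rho = 0.47, permutation p = 0.128, adjusted p = 0.150; 0.61 without the 2 farthest), and 0.09 with group means subtracted. Within groups the correlation was thus near 0, while over all libraries the marker levels and the groups moved together. Mmrn2 varied little within groups of 3 libraries, so marker level and group cannot be told apart for it.

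**Figure D4:**
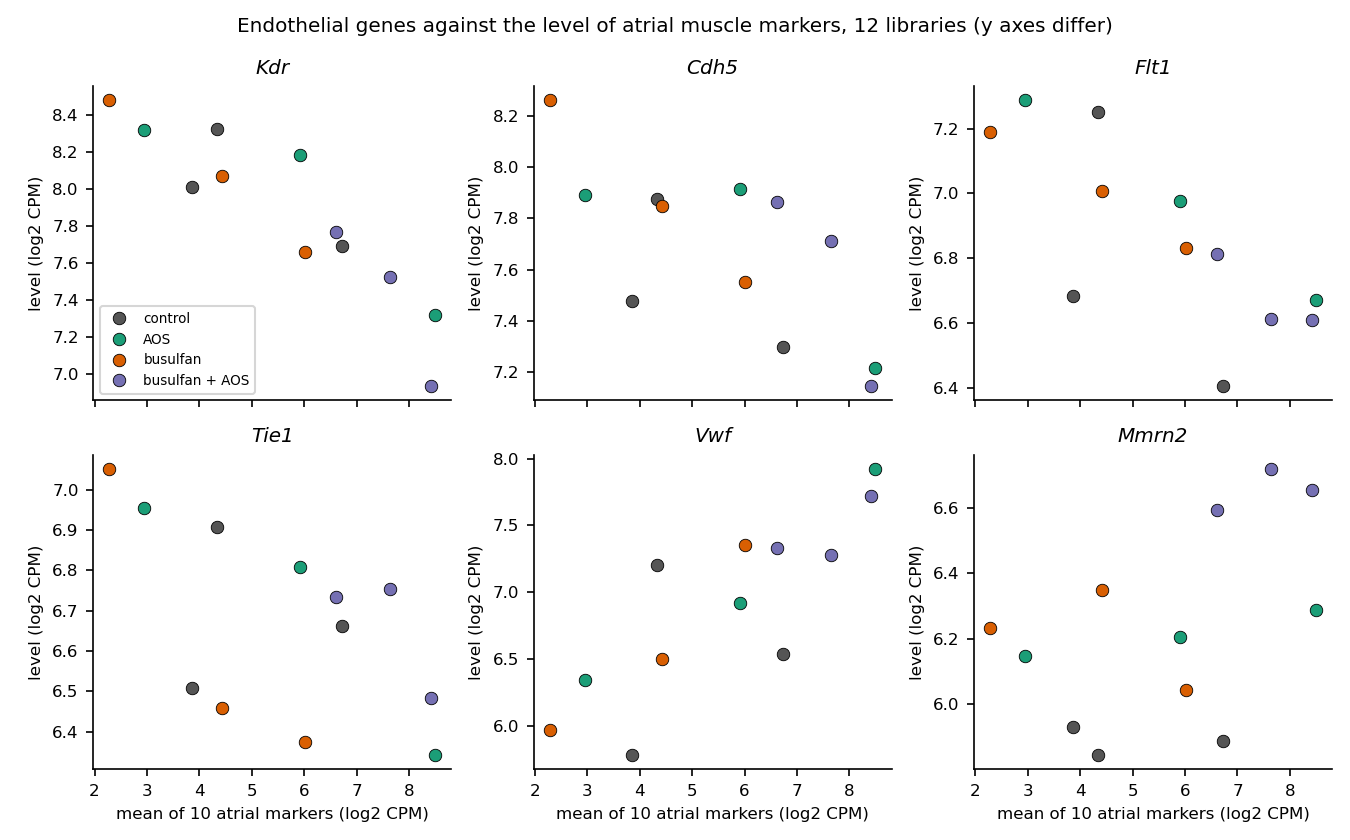
Level in log2 CPM (y axes, different per gene) of Kdr, Cdh5, Flt1, Tie1, Vwf and Mmrn2 against the mean of 10 atrial muscle markers in log2 CPM (x axis), 1 point per library, coloured by group. Kdr falls along the axis (r = -0.91) and Vwf rises (r = 0.83). For Mmrn2 the control libraries are lowest and the busulfan plus AOS libraries highest, with the AOS and busulfan libraries overlapping between them.

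Pecam1, which joins neighbouring endothelial cells, measured 58.7, 67.8 and 68.0 FPKM in control, and 63.3, 97.6 and 66.1 with AOS. With busulfan it measured 80.1, 74.9 and 69.0 FPKM, and with busulfan plus AOS 94.3, 78.2 and 87.3. The busulfan plus AOS libraries were above all control libraries, but the log2 fold change was 0.23 (95% interval -0.04 to 0.49; edgeR adjusted p = 0.207). AOS replicate 2 was the highest library of all.

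Tek, the angiopoietin receptor, measured 19.1, 21.2 and 21.7 FPKM in control, and 20.0, 28.3 and 21.1 with AOS. With busulfan it measured 19.4, 18.8 and 17.4 FPKM, and with busulfan plus AOS 21.1, 19.5 and 22.0. The groups with and without busulfan overlapped in FPKM, and the separations of Tek counted below hold after TMM scaling. Averaged over AOS, Tek was lower with busulfan by a log2 difference of -0.20 (95% interval -0.34 to -0.05; edgeR unadjusted p = 0.0129, adjusted p = 0.198). This did not pass in any of the 25 alternatives. Tek had a low spread within groups, and AOS replicate 2 was its highest library at 28.3 FPKM.

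Egfl7 measured 40.6, 55.7 and 38.2 FPKM in control, and 43.1, 38.8 and 41.6 with AOS. With busulfan it measured 45.2, 31.5 and 34.3 FPKM, and with busulfan plus AOS 32.4, 39.2 and 43.2. The groups overlap in FPKM, and after TMM scaling the busulfan plus AOS libraries were below the control libraries. The log2 fold change was -0.41 (95% interval -0.80 to -0.03; edgeR unadjusted p = 0.0372, adjusted p = 0.133), and with the endothelial level as a covariate it passed at -0.44 (adjusted p = 0.0475). In the annotation its gene overlaps Agpat2 on the other strand and Gm20532, a protein-coding gene on the same strand. Its counts were fractional, and the sources used here do not give the strandedness, so its values are uncertain. An antisense gene without values of its own overlaps Cdh5. Cdh5 counts were whole numbers in all 12 libraries, so the uncertainty there is that of the unknown strandedness. Tie1 had fractional counts in all 12 libraries with no overlapping gene in the annotation, and its values are uncertain too.

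Counted by separation of the groups on the TMM-scaled log2 CPM scale, 4 of the 10 genes lay wholly higher after busulfan plus AOS than in control (Mmrn2, Adcy4, Pecam1 and Vwf), where 20.1% of all genes did, and 1 wholly lower (Egfl7), where 20% did. For busulfan against control 2 of 10 were wholly higher, against 8.82% of all genes, and for AOS against control 2 of 10, against 5.25%. In both comparisons these were Mmrn2 and Adcy4. Wholly lower were 1 of 10 with busulfan (Tek), against 7.95% of all genes, and 0 of 10 with AOS, against 4.73%. For busulfan plus AOS against busulfan it was 1 of 10 (Mmrn2), against 10.5%, and against AOS 2 of 10 (Mmrn2 and Adcy4), against 7.24%. Wholly lower was 1 of 10 in each, Flt1 against busulfan (11% of all genes) and Tek against AOS (5.63%). Counts as small as these cannot be read as more than a description of the 10 genes.

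Ligands of the receptors were listed beside them. Of 13 tested VEGF and angiopoietin ligands and co-receptors, 9 were higher in the mean after busulfan plus AOS than in control. Their median log2 fold change was 0.37. edgeR called 0, while 5 had an unadjusted p under 0.05 and DESeq2 called 3, against 32.8% and 15.3% of all genes, so the unadjusted count is near the background. Vegfb, which binds Flt1, went from 225 to 280 FPKM in control to 143 to 191 (log2 fold change -0.72 ± 0.22 SE, adjusted p = 0.0869). Pgf, another Flt1 ligand, went from 3.39 to 3.87 FPKM to 4.51 to 6.82 (0.52 ± 0.19, 0.106). Angptl4, a lipase inhibitor made by fat and heart muscle, had 2.27 ± 0.80 (0.101), and its highest values were in libraries with high adipocyte markers; its part in that result was not tested. Angpt4 was at 0 to 0.360 FPKM in control libraries and at 0.860 to 3.57 after busulfan plus AOS. These values rest on few counts, 0, 6 and 1 in control replicates 1 to 3 and 35, 15 and 62 after busulfan plus AOS.

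Genes of endothelial subtypes gave 0 edgeR calls in busulfan plus AOS against control. Over all genes 32.8% had an unadjusted p under 0.05 and DESeq2 called 15.3%. The lists overlap: Kdr is also a capillary gene, and the venous list shares Selp, Ackr1 and Vcam1 with the activation list. The 10 capillary genes had a median log2 fold change of -0.47, with 6 lower in the mean, 2 having an unadjusted p under 0.05 and 1 called by DESeq2. Car4, a carbonic anhydrase of capillaries, went from 15.0 to 18.9 FPKM in control to 4.82 to 12.3 (-1.12 ± 0.34 SE, edgeR adjusted p = 0.0891). The 8 endocardial genes had a median of 1.09, with 7 higher, 2 at an unadjusted p under 0.05 and 2 called by DESeq2. Nfatc1, a transcription factor of endocardium, had 0.47 ± 0.12 (0.0787). The 8 venous genes had a median of 0.71, with 7 higher, 2 at an unadjusted p under 0.05 and 2 called by DESeq2. The 10 arterial genes had -0.03, with 4 higher, 1 at an unadjusted p under 0.05 and 0 called by DESeq2.

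Activation, lymphatic and junction genes gave 0 edgeR calls in the same comparison. DESeq2 called 2 of 8 activation genes (Icam1 and Selp), 2 of 8 lymphatic genes (Lyve1 and Prox1) and 2 of 12 junction partners (Ctnnd1 and Jam2), against 15.3% of all genes. At an unadjusted p under 0.05 in edgeR the counts were 2, 4 and 2, against 32.8%. Of 8 genes of activated endothelium, 7 were higher in the mean, with a median log2 fold change of 0.55. Icam1, a leukocyte adhesion molecule, went from 5.20 to 7.42 FPKM in control to 12.1 to 17.6 (0.99 ± 0.24 SE, edgeR adjusted p = 0.0770). Selp, P-selectin, went from 0.120 to 0.500 FPKM to 1.46 to 2.31 (2.16 ± 0.80, 0.108). Of 8 lymphatic genes 6 were higher, with a median of 0.29; Lyve1 had 1.11 ± 0.40 (0.103) and Prox1 -0.66 ± 0.17 (0.0787). The 12 junction partners of Cdh5 had a median of -0.06, with 4 higher; Ctnnd1, p120 catenin, had 0.41 ± 0.10 (0.0736) and Jam2 -0.45 ± 0.15 (0.0938).

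Several marker lists of other cell types moved in the same comparison. Of these lists only the atrial and adipocyte levels were fitted as covariates. The part of the others in these values was not tested. After busulfan plus AOS, 10 of 10 atrial, 10 of 10 adipocyte, 7 of 7 mesothelium, 8 of 8 fibroblast and 10 of 10 macrophage markers were higher in the mean than in control, and 0 of 10 ventricular markers were. In the other lists 5 of 5 B cell, 5 of 10 mural cell, 4 of 7 lung epithelium and 2 of 7 platelet markers were higher. Of all tested genes 53.0% were higher. The mesothelium level was 2.19 to 3.42 log2 CPM in control and 4.14 to 5.55 after busulfan plus AOS. The atrial level overlapped, at 3.86 to 6.73 log2 CPM in control and 6.61 to 8.41 after busulfan plus AOS.

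Likeness was ranked across 10742 genes with a mean of at least 5 CPM, with predicted and unnamed gene models left out. The gene whose levels most resembled those of Mmrn2 was Wt1, the epicardial and mesothelial transcription factor, with r = 0.90 over 12 libraries. Zfp623, Frmd8, Atad2, Prdm15, Rin3, Banp, Etv6, Tbk1 and Sdf2l1 followed, down to r = 0.86. With group means subtracted their correlations with Mmrn2 were between -0.14 and 0.55. Wt1 was at 1.74 to 2.17 FPKM in control and at 5.79 to 9.20 after busulfan plus AOS. By Spearman's rho the closest gene was Lrrfip1 (0.92), and with group means subtracted Rnf185 (0.92). Of the other 9 endothelial genes, Adcy4 ranked 140th by r and Pecam1 998th.

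The mean of the other 9 genes resembled a different set. For this mean each gene's log2 CPM was first centred on its own mean and divided by its SD over the 12 libraries. Bahcc1 was closest, with r = 0.93 over 12 libraries and 0.95 with group means subtracted. Ulk1, Nbeal2, Carm1, Ntn1, Sema6b, Dnm2, Proser1 and Rps6kc1 were among the genes that followed, down to r = 0.85. Mmrn2 itself had r = 0.05 with that mean and ranked 5403rd of 10734 genes. These likenesses are descriptions over the same 12 libraries, which share their scaling, and no test was made of them.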

How the data were processed

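Heart RNA of 12 mouse libraries was sequenced. The authors deposited estimated counts per gene and an expression value, taken as FPKM because count, value and library total imply the same gene length in every library (median variation 0.457% over 1097 genes). Per the submitters' processing notes the genome build was mm10. The aligner, counter and strandedness are not stated there or in the labels. The 8 columns of group means in the table were not used. Groups come from the titles, whose codes are longer than those in the design text. Tissue is labelled Cells, while the protocol names the heart.

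Estimated counts were rounded, filtered with filterByExpr (14687 genes kept, 4559 left out), scaled by TMM and fitted for all 12 libraries by the quasi-likelihood method of edgeR 4.0.16 under R 4.3.3. Calls had a Benjamini-Hochberg adjusted p under 0.05, over all genes of a comparison. SE was computed as log2 fold change over the root of F. limma 3.58.1 and DESeq2 1.42.0 served as alternatives, and the edgeR fit was tested on simulated data. Levels are log2 CPM with a prior count of 2; correlation p-values used 100000 permutations in scipy 1.17.1 and are two-sided. Every one of the 10 genes is named; of each further list, up to 4 genes with the smallest unadjusted p could be named. Cd93 was added after its values were seen. A gene that the likeness rule takes is not reported here. Permuting 3 libraries against 3 exactly gives at best p = 0.1, so none is given. The genes and lists were chosen with earlier results of these data known.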

Additional observations from a re-analysis of the deposited data

How the results depend on the processing

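Up to 26 alternatives were fitted per comparison. In busulfan plus AOS against control the number of the 10 genes called, 2 in the report, was 1 with DESeq2 size factors in edgeR, without a filter on low counts, with limma-voom, with limma on log2(FPKM + 1) with and without a filter, with limma on log2(FPKM + 0.1) and in a fit of only the groups compared. It was 0 with the atrial or the adipocyte level as a covariate, 3 with the endothelial level, and 0 to 2 when a library was left out. Library totals in place of TMM kept 2 but moved the median log2 fold change of all genes from 0.04 to 0.23, by 0.19; limma on log2(FPKM + 1) moved it by 0.12 and on log2(FPKM + 0.1) by 0.14. DESeq2 gave 1 for busulfan against control, busulfan plus AOS against busulfan, busulfan plus AOS against AOS and the effect of AOS, and 2 for the effect of busulfan, where the report has 0. The atrial covariate gave 1 for busulfan against control and 2 for the effect of busulfan, the endothelial covariate 2 for the effect of busulfan, and limma-voom with library weights 1 for busulfan plus AOS against AOS and 2 for the effect of busulfan. Leaving out a library gave 0 to 2 for the effect of busulfan. With the adipocyte covariate the log2 fold changes of busulfan plus AOS against control changed sign for Kdr (0.2785) and Vwf (-0.3904); the cause was not tested. The counts for AOS against control and for the interaction were 0 in every alternative.

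The deviations of same-numbered libraries from their group means had correlations from -0.45 to 0.55 over 18 pairs, with 6 over 0.1. These 6 joined replicates 1 or replicates 2 of the control, AOS and busulfan groups. With 3 libraries per group this cannot decide whether the numbers pair the libraries. With the replicate number as a block the count for busulfan plus AOS against control was 1, and the other counts were unchanged at 0. The common biological coefficient of variation of 29.1% and 3 libraries per group limit what could be called.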
